A study of Mus musculus with 15 samples.

Results

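The factors described here act in mRNA decay and in shortening of the poly(A) tail. They were taken from the gene expression table of a mouse heart series as every row whose symbol begins with Cnot, Exosc, Upf, Smg, Lsm, Xrn, Pabp, Zfp36, Btg, Dcp1 or Dcp2, or is Tob1, Tob2, Parn, Pan2, Pan3 or Usp52. The rule found 65 of the 16199 genes in the table. Of these, 60 have a role in decay or belong to a family of decay factors, and 5 share only the letters Zfp36 (Zfp364, Zfp365, Zfp366, Zfp367 and Zfp369, which are other zinc finger genes). Usp52 is the older symbol of Pan2, Zfp364 of Rnf115, Lsmd1 of Naa38 and Pabpnl1 of Pabpn1l.

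Ventricles came from 15 FVB mice of 14 to 16 weeks, 3 in each of 5 groups, and their poly(A)+ RNA was sequenced in paired-end libraries that keep the strand. In 12 mice, carrying both MHCrtTA and TRECUGBP2, doxycycline in the food (2 g/kg) induced a FLAG-tagged human CELF2 transgene for 12 h, 24 h, 72 h or 7 d. The 3 control mice carried MHCrtTA alone and ate the same food for 72 h. All mice thus carried the transactivator rtTA, which the Myh6 promoter drives in cardiomyocytes, so the transgene responds in these cells, whereas the RNA is from whole ventricle. Atria and a small piece of the apex had been removed. Only the 72 h group matches the controls in length of doxycycline, and the same 3 controls enter every comparison with control.

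Decay of most mRNAs starts at the 3′ end. The PAN2-PAN3 and CCR4-NOT complexes remove the poly(A) tail, to which poly(A)-binding proteins are bound, and BTG and TOB proteins join the deadenylases of CCR4-NOT to their targets. The mRNA is then decapped by DCP2 with DCP1, helped by the Lsm1 to Lsm7 ring, and degraded from the 5′ end by XRN1, or it is degraded from the 3′ end by the RNA exosome. Proteins of the ZFP36 family bring the deadenylases to AU-rich elements in 3′ UTRs, and UPF and SMG proteins direct nonsense-mediated decay of mRNAs with premature stop codons. CELF proteins bind GU-rich RNA, in introns as splicing regulators and in 3′ UTRs, where CELF1 promotes decay.

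Elements of both kinds occur in the members' own 3′ UTRs. They are shown because they are the sequences through which the ZFP36 and CELF families recognise mRNAs. The AU-rich nonamer (TTATTTATT in DNA letters, searched on the mRNA strand of mm9 transcripts) was present in 6.35% of 14985 genes and in 5 of 58 members. Among these were the 3 expressed ZFP36 genes, and the capitals mark the nonamer, lying at base 589 of 774 in the 3′ UTR of Zfp36 (chr7:29161969-29161998, minus strand), 1404 of 1829 in Zfp36l1 (chr12:81209153-81209182, minus strand) and 821 of 1822 in Zfp36l2 (chr17:84584253-84584282, minus strand).
Zfp36: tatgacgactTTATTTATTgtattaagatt
Zfp36l1: aactgttggaTTATTTATTttagaaattct
Zfp36l2: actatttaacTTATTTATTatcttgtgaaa

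The GU-rich element, given by the letters in capitals and searched in the same way, was present in 2.94% of genes and in 3 of 58 members. No member held both motifs. It is shown in the 3′ UTRs of Cnot6l (chr5:96505112-96505141), Lsm6 (chr8:81331990-81332019) and Upf1 (chr8:72855858-72855887), all on the minus strand of mm9. None of these 3 mRNAs passed the test of any comparison. At 7 d the log2 change was -0.05 ± 0.31 (standard error, SE) for Cnot6l, -0.03 ± 0.18 for Lsm6 and 0.17 ± 0.22 for Upf1.
Cnot6l: gtaaaatggcTGTTTGTTTGTtgttttggt
Lsm6: ggtgggggttTGTTTGTTTGTttgtttaat
Upf1: ttttttttttTGTTTGTTTGTttggttttt

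Values are RPKM, reads scaled to the length of coding sequence and to the mapped reads of each library. Levels also varied with GC content between libraries, as given below, so ranks between genes are approximate. The table gives no read totals, depth is therefore unknown, and between 1463 and 1977 genes per heart were listed at 0. As a check of the labels, Celf2 (listed as Cugbp2) averaged 123 ± 60.0 RPKM after 12 h, 150 ± 33.2 after 24 h, 230 ± 26.4 after 72 h and 324 ± 54.8 after 7 d, against 9.82 ± 1.37 in controls (SD, n = 3 each). A pair of other properties run along with the groups. Y-linked mRNA was present in 0 of 3 hearts after 12 h, in 2 of 3 after 24 h, in 3 of 3 after 72 h and in 3 of 3 after 7 d, against 1 of 3 controls. The sample titles also carry a numeric code of 3 kinds, here A, B and C, whose meaning the labels do not give. The 12 h, 24 h and control groups each hold 1 heart of A and 2 of B, the 72 h group 2 of A and 1 of C, and the 7 d group 1 of A and 2 of C. Cardiomyocyte markers summed to 35125 to 37941 RPKM at 7 d, against 36734 to 39378 in controls, and at 7 d 1 of 7 rose (Actc1) and 2 fell (Myh6 and Pln). Of 8 endothelial markers Flt1 fell, and of 3 adipocyte markers Cfd fell. The part of these markers in the results was not tested, and fewer cells of a type cannot be told apart from less RNA per cell in whole ventricle.

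Of the 65 members, 59 had a mean of at least 1 RPKM and were tested, 55 of them with a role in decay or in a family of decay factors. The LSM genes were counted as a family, with Lsm8, Lsm10, Lsm12 and Lsmd1 among them. The other 6, Zfp36l3, Pabpc2, Pabpc5, Pabpnl1, Zfp365 and Lsm11, lay below that level. The means of the tested members ran from 1.37 to 139 RPKM with a median of 11.7, against a median of 8.75 over the 10557 genes tested. The most abundant was Pabpc4, a cytoplasmic poly(A)-binding protein, and within the other roles the highest means were those of the deadenylase Cnot8 (23.3), Parn (5.43), Tob1 (25.6), Zfp36l1 (25.2), the exonuclease Xrn2 (11.7), Lsmd1 (52.5), the catalytic exosome subunit Exosc10 (17.3) and Smg5 (18.6). The 3 tested poly(A)-binding protein genes, Pabpc4, Pabpc1 and Pabpn1, thus had higher means than most other members.

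Most members did not pass the test after CELF2 induction, in a design of 3 hearts per group. Genes with an adjusted p under 0.05 (limma on log2(RPKM + 0.5), Benjamini-Hochberg adjusted over all genes tested) are said to have been called. No member was called at 12 h or 24 h, where limma called 0.388% and 0.0947% of all genes and 7 and 3 members had an unadjusted p under 0.05. The number with an unadjusted p under 0.05 was 13 at 72 h and 16 at 7 d. The share of all genes at this unadjusted threshold was not counted, so these numbers are not read as a result about the members. With the title code as a covariate, 3 members were called at 12 h and 1 at 24 h, where 7.31% and 3.09% of all genes were. At 72 h, Lsm12 was the only member called, where 0.597% of all genes were. At 7 d, 7 of 59 members were called, which is 11.9%, against 9.99% of all genes, so their share was near the background. Of these, 4 fell (Tob2, Usp52, Lsm10 and Pabpc4), where 4.16% of all genes did, and 3 rose (Lsm12, Upf2 and Zfp364, the last of which shares letters only), where 5.83% did. The split of 3 higher and 4 lower became 2 and 4 under median-ratio scaling, 1 and 6 under upper-quartile scaling, 2 and 6 under quantile normalization, and 2 and 7 with the title code as a covariate. These fits called 12%, 12.1%, 12.3% and 12.7% of all genes. The 6 called members other than Zfp364 are, with their mm9 positions, Tob2 (chr15:81678700-81688756, minus strand), Usp52 (chr10:127740391-127758403, plus), Pabpc4 (chr4:122939594-122976168, plus), Lsm10 (chr4:125773867-125775828, plus), Lsm12 (chr11:102023811-102046610, minus) and Upf2 (chr2:5872515-5977749, plus), and none of these 6 has coding exons overlapped by another gene. Lsm10 and Lsm12 were counted through the LSM family. With Y-linked mRNA as a covariate, Tob2 was the only member called at 7 d, where 3.93% of all genes were. Over all 5 groups together, 7 members differed (limma F test), against 11.7% of all genes, and 46 of 59 were called in none of the 6 pairwise comparisons made. The median log2 change of the members at 7 d was -0.06, against 0.03 over all genes tested. At 7 d, the hearts of 7 members lay above and those of 14 below all controls, where 18.3% and 13.4% of all genes did so. At 72 h these counts were 5 above and 6 below (7.35% and 10.8% of all genes), at 24 h 1 and 8 (2.77% and 14.5%) and at 12 h 3 and 9 (3.31% and 13.2%). At 7 d, Cnot8, Lsm1 and Zfp364 lay above all 12 other hearts, as did 7.36% of all genes.

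**Figure D1:**
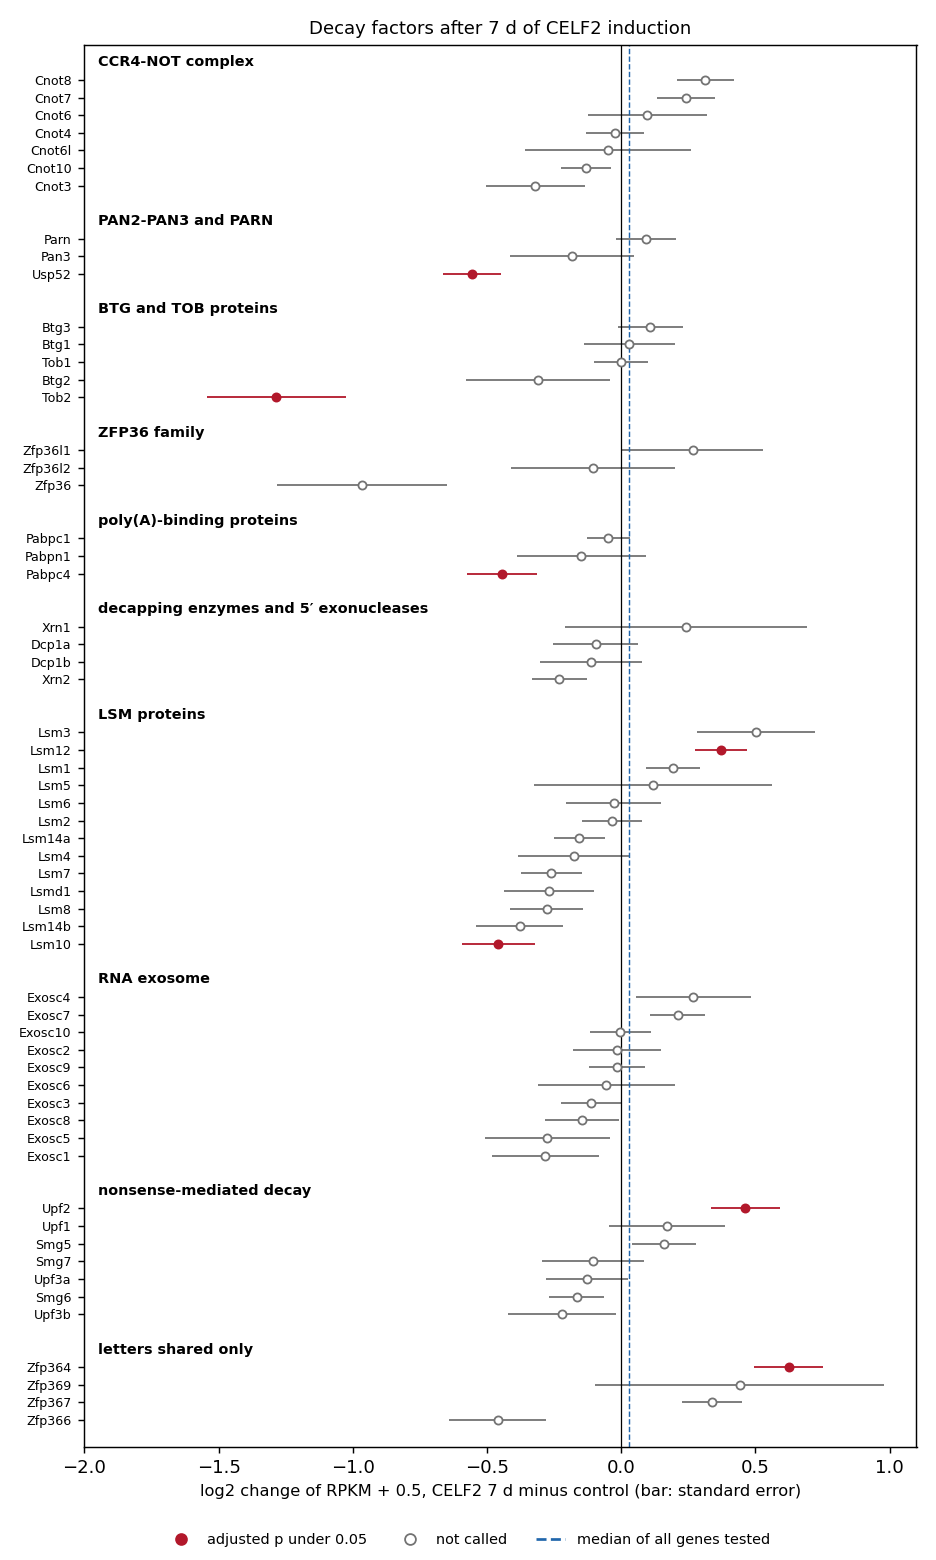
Log2 change of each tested member at 7 d of CELF2 induction against control (x axis, log2 of RPKM + 0.5, bars are the standard error of the fit, n = 3 hearts per group), grouped by role, with filled points for an adjusted p under 0.05 and a dashed line at the median of all genes tested. Tob2 lies farthest to the left at -1.29, and the 10 exosome subunits lie between -0.28 and 0.27.

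BTG and TOB proteins recruit the CCR4-NOT deadenylases, and of 5 tested genes 1 fell at 7 d. Tob2, which joins CCR4-NOT to cytoplasmic poly(A)-binding protein, had 7.62, 8.48 and 8.12 RPKM at 7 d, against 18.90, 20.03 and 22.35 in controls. Its level at 7 d lay below that of each of the 12 other hearts, a pattern found in 2.61% of all genes tested and in no other member. The log2 change was -1.29 ± 0.26 (SE, adjusted p = 0.00601, limma), a ratio of means of 0.395. At earlier times Tob2 had 11.69, 20.93 and 17.30 RPKM after 12 h, 13.65, 24.36 and 16.09 after 24 h, and 12.58, 13.35 and 24.95 after 72 h, overlapping the controls, and these changes (-0.32, -0.21 and -0.33 on the log2 scale) were not called. The spread at these times followed the title code. Tob2 was higher by 0.45 ± 0.15 in code B and by 0.52 ± 0.19 in code C than in code A, whereas at 7 d the heart of code A (7.62 RPKM) was within 1 RPKM of those of code C. Within code A, 1 heart against 1, the difference between 7 d and control was -1.26. Tob2 was also lower within code A at 12 h (-0.67), 24 h (-0.46) and 72 h (-0.53), and the code A hearts of these times lay below all controls. Within code B the differences were -0.15 at 12 h and -0.09 at 24 h. With the code as a covariate the change was -1.33 ± 0.24 (limma adjusted p = 0.00354), and with Y-linked mRNA as a covariate -1.51 ± 0.32 (limma adjusted p = 0.0198). With both covariates it was -1.37 ± 0.37 and no longer called (limma adjusted p = 0.0857). The call was kept when any single heart was left out.

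Tob1, the closest relative of Tob2, was called in no comparison. It had 26.69, 24.68 and 24.42 RPKM at 7 d, against 23.70, 24.76 and 27.43 in controls, and a log2 change of -0.0003 ± 0.10. Btg1, which also binds the deadenylases Cnot7 and Cnot8, had 13.78, 14.06 and 18.57 RPKM at 7 d, against 15.64, 13.92 and 15.49 in controls. Btg2, an immediate early relative of Btg1, had 14.28, 23.61 and 32.06 RPKM at 12 h and 12.06, 11.22 and 12.82 at 7 d, against 14.52, 15.88 and 14.70 in controls. Its 2 high values at 12 h are from hearts of code B, and the 7 d hearts all lie below the controls. Neither time was called against control, with log2 changes of 0.54 ± 0.27 at 12 h and -0.31 ± 0.27 at 7 d.

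Of the deadenylases outside CCR4-NOT, 1 of 3 tested genes fell at 7 d. Usp52, the catalytic subunit PAN2 of the PAN2-PAN3 deadenylase, had 3.87, 4.01 and 4.57 RPKM at 7 d, against 6.35, 7.03 and 5.64 in controls. Its log2 change was -0.55 ± 0.11 (SE, limma adjusted p = 0.00508). At 72 h it had 4.24, 4.75 and 4.42 RPKM, also below all controls, with a change of -0.46 ± 0.11 that missed the threshold (limma adjusted p = 0.0756). The 12 h hearts (5.52, 6.09 and 5.75 RPKM) and the 24 h hearts (6.03, 5.53 and 5.52 RPKM) overlapped the controls, so the 6 hearts of the later times were the lowest of the 15. Usp52 differed by -0.01 ± 0.09 between codes B and A and by 0.05 ± 0.11 between C and A. With the title code as a covariate the call at 7 d was kept (-0.60 ± 0.13, limma adjusted p = 0.0124) and that at 72 h was gained (-0.48 ± 0.12, adjusted p = 0.0429). With Y-linked mRNA as a covariate, the change at 7 d was -0.43 ± 0.13 and not called (limma adjusted p = 0.0918). All 6 hearts at 72 h and 7 d held Y-linked mRNA. So did the control with 5.64 RPKM, the lowest control, and the 24 h hearts with 5.53 and 5.52 RPKM. Both of the latter lay below the 24 h heart without it (6.03 RPKM). The 12 h hearts, where it was absent, ranged from 5.52 to 6.09 RPKM. The part of Y-linked mRNA in the change was not tested beyond this covariate.

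Pan3, the partner of PAN2, and Parn, a poly(A)-specific ribonuclease, were not called in any comparison. Parn had 5.80, 5.35 and 5.86 RPKM at 7 d, against 5.79, 5.03 and 5.05 in controls. Of 7 CCR4-NOT genes tested, none was called against control at any time. They were Cnot3, Cnot4, Cnot6, Cnot6l, Cnot7, Cnot8 and Cnot10, and no row was named Cnot1. The catalytic subunits Cnot7 and Cnot8, which are paralogs, both had higher means at 7 d. Cnot8 had 28.31, 28.14 and 29.76 RPKM at 7 d, against 23.70, 21.03 and 24.47 in controls, with a log2 change of 0.31 ± 0.11 (limma adjusted p = 0.0823). These 3 hearts had the highest Cnot8 values of the 15, the nearest being 25.86 RPKM in the 72 h heart of code C. Cnot7 had 23.52, 19.22 and 20.05 RPKM at 7 d, against 18.86, 16.03 and 17.91 in controls, a change of 0.24 ± 0.11 (adjusted p = 0.192). Cnot3, a scaffold-bound regulatory subunit, had a change of -0.32 ± 0.19.

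**Figure D2:**
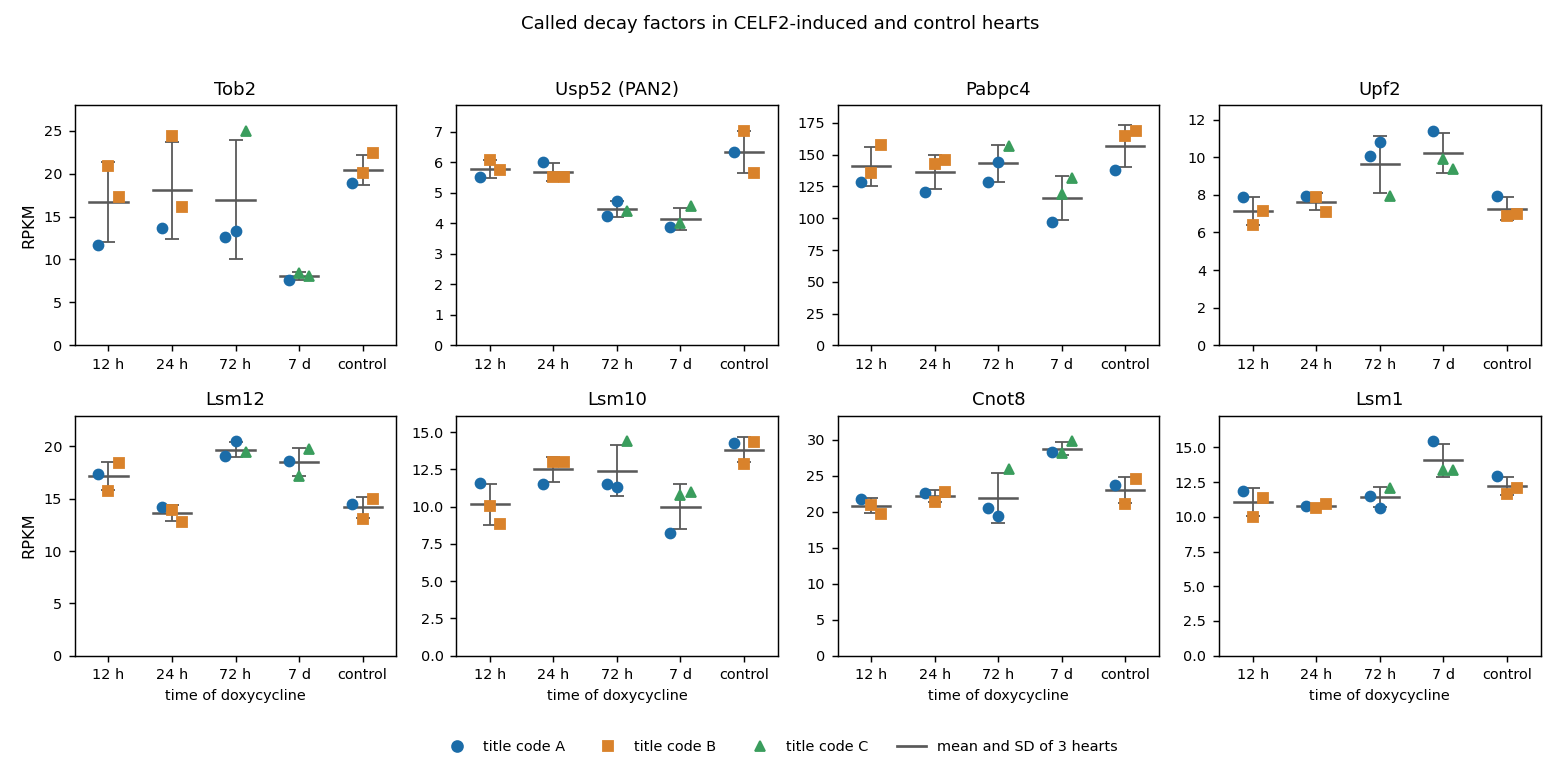
RPKM (y axis) in each heart by length of CELF2 induction (12 h, 24 h, 72 h, 7 d) and in controls, for 8 members called in some comparison, with lines for the mean and SD of 3 hearts and symbols for the title code. Tob2 at 7 d (7.62 to 8.48 RPKM) lies below every other heart, and Usp52 is low at both 72 h and 7 d.

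Poly(A)-binding proteins coat the tail and protect it or present it to deadenylases. Pabpc4 had 96.90, 119.09 and 131.43 RPKM at 7 d, against 138.30, 164.38 and 168.59 in controls. The groups do not overlap, and the log2 change was -0.44 ± 0.13 (limma adjusted p = 0.0456). In both groups the heart of code A was the lowest, and within code A the difference was -0.51. This call was lost in 9 of the 15 fits that left out a heart. Pabpc1, also a cytoplasmic form, had 60.29, 63.30 and 66.78 RPKM at 7 d, against 63.82, 65.20 and 67.86 in controls, a change of -0.05 ± 0.08. Pabpn1, the nuclear form, had 24.23, 36.28 and 39.16 RPKM at 7 d, against 29.95, 40.97 and 38.37 in controls, with a change of -0.15 ± 0.24. Its exons overlap those of a gene model on the same strand, Gm20521, so its values are uncertain.

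The ZFP36 family holds the proteins that bring deadenylases to AU-rich elements. None of its 3 tested genes was called against control. Zfp36 (tristetraprolin) had 9.07, 10.48 and 10.39 RPKM at 7 d, against 19.63, 23.27 and 17.29 in controls. The groups do not overlap and the ratio of means is 0.497, but the log2 change of -0.97 ± 0.32 missed the threshold (limma adjusted p = 0.0695). The wide error comes with a wide spread at earlier times, where Zfp36 had 13.48, 22.67 and 32.20 RPKM after 12 h, 9.29, 24.44 and 14.80 after 24 h, and 14.07, 11.87 and 18.97 after 72 h. In the 12 h and 24 h groups the lowest value is from the heart of code A, and among controls from a heart of code B. Zfp36l1 had 19.05, 30.11 and 31.07 RPKM at 7 d, against 16.75, 21.18 and 28.55 in controls, and Zfp36l2 had 4.85, 7.18 and 8.09 RPKM, against 5.42, 7.33 and 8.97. In both genes, the lowest heart of each group at 12 h, 24 h, 7 d and in controls was that of code A. Zfp36l1 averaged 30.9 ± 7.16 RPKM at 12 h, against 22.2 ± 5.96 in controls (SD, n = 3 each). This difference of 0.48 ± 0.26 was not called, but it was called with the title code as a covariate (SE 0.11, limma adjusted p = 0.025).

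**Figure D3:**
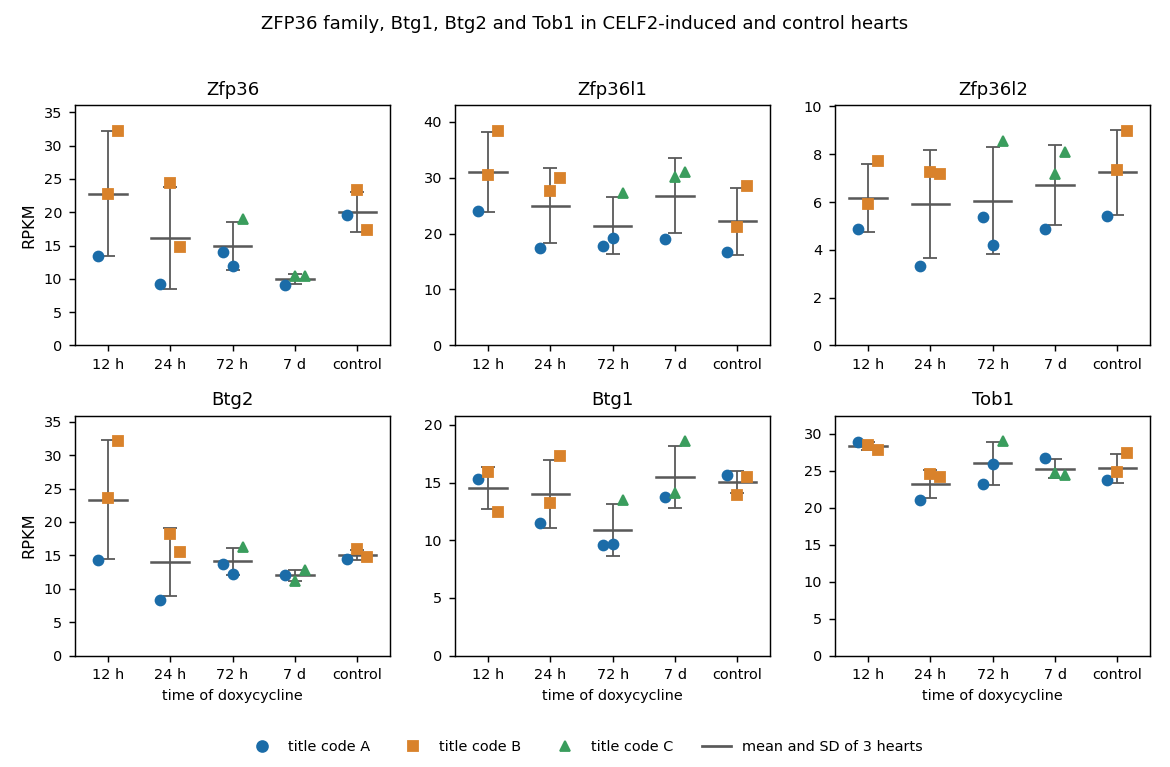
RPKM (y axis) in each heart by length of CELF2 induction (12 h, 24 h, 72 h, 7 d) and in controls, for the 3 expressed ZFP36 genes, Btg1, Btg2 and Tob1, with lines for the mean and SD of 3 hearts and symbols for the title code. Zfp36 lies between 9.07 and 10.48 RPKM at 7 d, below all controls, and Zfp36l2 is lowest in hearts of code A.

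Zfp36 and Btg2 are both immediate early genes, transcribed quickly after a stimulus through serum response factor at CArG boxes and through CREB at cAMP response elements (CRE). In 300 bases around each start site (RefSeq, GRCm38.p6, 250 before and 50 after, 48 members matched, both strands searched), a CArG box was present in 1.63% of all promoters and, among members, only in that of Zfp36, 58 bases before the start. The CRE (TGACGTCA) was present in 1.79% of all promoters and, among members, in those of Btg2, 166 bases before the start, and Lsm2. The sites are shown with the motif in capitals, for Zfp36 at chr7:28379267-28379296 and for Btg2 at chr1:134079303-134079332, both on the minus strand. The promoter of Tob2 held neither motif in this window.
Zfp36: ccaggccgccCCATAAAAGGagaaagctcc
Btg2: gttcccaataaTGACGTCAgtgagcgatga

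Dcp1a, Dcp1b, Xrn1 and Xrn2 were the decapping and 5′ exonuclease genes tested, and none was called in any comparison. No row was named Dcp2, so the decapping enzyme itself was not followed. Xrn2, a nuclear 5′ exonuclease, had a log2 change of -0.23 ± 0.10 at 7 d. Xrn1, the cytoplasmic enzyme, had 3.41, 2.66 and 1.19 RPKM at 7 d, against 2.33, 2.13 and 1.20 in controls, and its range over the 15 hearts was 0.86 to 3.41 RPKM. Much of this range lies between title codes, since Xrn1 was lower by 0.94 ± 0.21 on the log2 scale in code B than in code A. Dcp1a and Dcp1b, the activators of DCP2, had log2 changes of -0.10 ± 0.16 and -0.11 ± 0.19 at 7 d.

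LSM proteins form rings around RNA. Of 13 tested, 1 rose and 1 fell at 7 d. Lsm12, a member outside the decapping ring, had 18.64, 17.13 and 19.75 RPKM at 7 d, against 14.50, 13.07 and 14.97 in controls, a log2 change of 0.37 ± 0.10 (limma adjusted p = 0.0252). At 72 h it had 19.07, 20.49 and 19.50 RPKM, a change of 0.46 ± 0.10 (adjusted p = 0.0491), a call kept in 3 of 15 fits without a heart. At 7 d the change was 0.35 ± 0.12 with the title code as a covariate and was then not called (limma adjusted p = 0.0695). All induced hearts at 12 h also lay above the controls (17.36, 15.72 and 18.39 RPKM), and those at 24 h overlapped them (14.20, 13.95 and 12.75 RPKM). Neither time was called against control, nor was 24 h against 12 h (-0.32 ± 0.10, limma adjusted p = 0.266). The title codes differed little in Lsm12, by -0.06 ± 0.08 on the log2 scale (B minus A). Lsm10, a subunit of the U7 snRNP that processes histone mRNA, had 8.26, 10.78 and 10.98 RPKM at 7 d, against 14.28, 12.88 and 14.34 in controls, a change of -0.46 ± 0.14 (adjusted p = 0.0465). The call at 7 d was kept in 3 of 15 fits without a heart. Lsm10 was also below all controls at 12 h, with 11.56, 10.07 and 8.83 RPKM (-0.43 ± 0.14, not called). With the title code as a covariate, Lsm10 was called at both times, with changes of -0.73 ± 0.13 at 7 d (limma adjusted p = 0.00311) and -0.43 ± 0.09 at 12 h (adjusted p = 0.0192).

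Lsmd1 is a subunit of an N-terminal acetyltransferase that carries an LSM domain. It had 43.17, 52.84 and 47.39 RPKM after 12 h, 42.68, 46.96 and 55.04 after 24 h, 45.36, 41.51 and 62.04 after 72 h, and 42.39, 61.67 and 55.52 after 7 d, against 60.42, 72.47 and 58.27 in controls. The hearts at 12 h and 24 h lay below all controls and those at 72 h and 7 d overlapped them. The log2 changes of -0.41 ± 0.17, -0.40 ± 0.17, -0.37 ± 0.17 and -0.27 ± 0.17 were not called. With the title code as a covariate, Lsmd1 was called at 12 h (-0.41 ± 0.09, limma adjusted p = 0.0238), at 24 h (-0.40 ± 0.09, 0.0388) and at 7 d (-0.47 ± 0.13, 0.0297), but not at 72 h. Lsm14b, a relative of the P-body protein LSM14A, had 22.61, 26.34 and 28.37 RPKM at 7 d, against 27.19, 35.67 and 38.80 in controls, and was called only with this covariate (-0.40 ± 0.12, limma adjusted p = 0.0366).

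Of the ring Lsm1 to Lsm7, no gene was called against control. Lsm1, which sets the cytoplasmic decapping ring apart from the nuclear ring, had 15.44, 13.39 and 13.36 RPKM at 7 d, against 12.95, 11.64 and 12.07 in controls (log2 change 0.19 ± 0.10). Lsm8, which takes its place in the nuclear ring, had 11.50, 13.40 and 13.65 RPKM at 7 d, against 18.19, 14.19 and 14.80 in controls (-0.28 ± 0.14). Both sets lie apart from the controls, in opposite directions. The difference between Lsm1 and Lsm8 was not tested, and Lsm8 was called at 7 d only with the title code as a covariate (-0.50 ± 0.12, limma adjusted p = 0.0191). Lsm5, the ring subunit with the lowest level, ranged from 1.41 to 11.12 RPKM over the hearts, and Lsm5 (0.96 ± 0.25) and Lsm3 (0.52 ± 0.09) were lower in code B than in A by these log2 amounts. Against control, Lsm5 changed by 0.95 ± 0.44 at 72 h and 0.12 ± 0.44 at 7 d, and Lsm3 by 0.61 ± 0.22 and 0.50 ± 0.22, none of them called.

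The RNA exosome, which degrades RNA from the 3′ end, had no member past the threshold. None of its 10 tested subunits was called in any comparison, and at 7 d their log2 changes ran from -0.28 to 0.27 with a median of -0.04. Exosc10 had 15.79, 17.92 and 19.20 RPKM at 7 d, against 15.78, 19.65 and 17.64 in controls. At 7 d, Exosc4 had 13.98 RPKM in the heart of code A and 23.37 and 22.77 RPKM in the hearts of code C, against 15.65, 16.45 and 16.29 RPKM in controls, so its position above or below the controls differed by code. The opposite-strand gene Oplah overlaps its exons.

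Nonsense-mediated decay contributed 7 tested genes, of which 1 rose at 7 d. Upf2, the adaptor between UPF1 and UPF3 proteins, had 11.39, 9.92 and 9.36 RPKM at 7 d, against 7.96, 6.88 and 6.98 in controls. Its log2 change was 0.46 ± 0.13 (limma adjusted p = 0.0342). It was not called at 7 d under any of 3 scalings between hearts, with adjusted p from 0.0833 to 0.12. At 72 h the hearts of code A had 10.06 and 10.83 RPKM and the heart of code C had 7.95, and the change of 0.37 ± 0.13 was not called. Upf2 was lower in code C than in A by 0.30 ± 0.09, and the change at 7 d was larger with the code as a covariate (0.56 ± 0.11, limma adjusted p = 0.00597), and at 72 h it was then called as well (0.37 ± 0.10, adjusted p = 0.0498). Upf1, the central helicase, had 12.89, 16.03 and 21.36 RPKM at 7 d, against 12.16, 15.51 and 16.23 in controls (0.17 ± 0.22). Smg5, which recruits deadenylation and decapping factors to UPF1 targets, had 19.63, 21.53 and 23.48 RPKM at 7 d, against 16.53, 20.77 and 20.64 (0.16 ± 0.12).

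**Figure D4:**
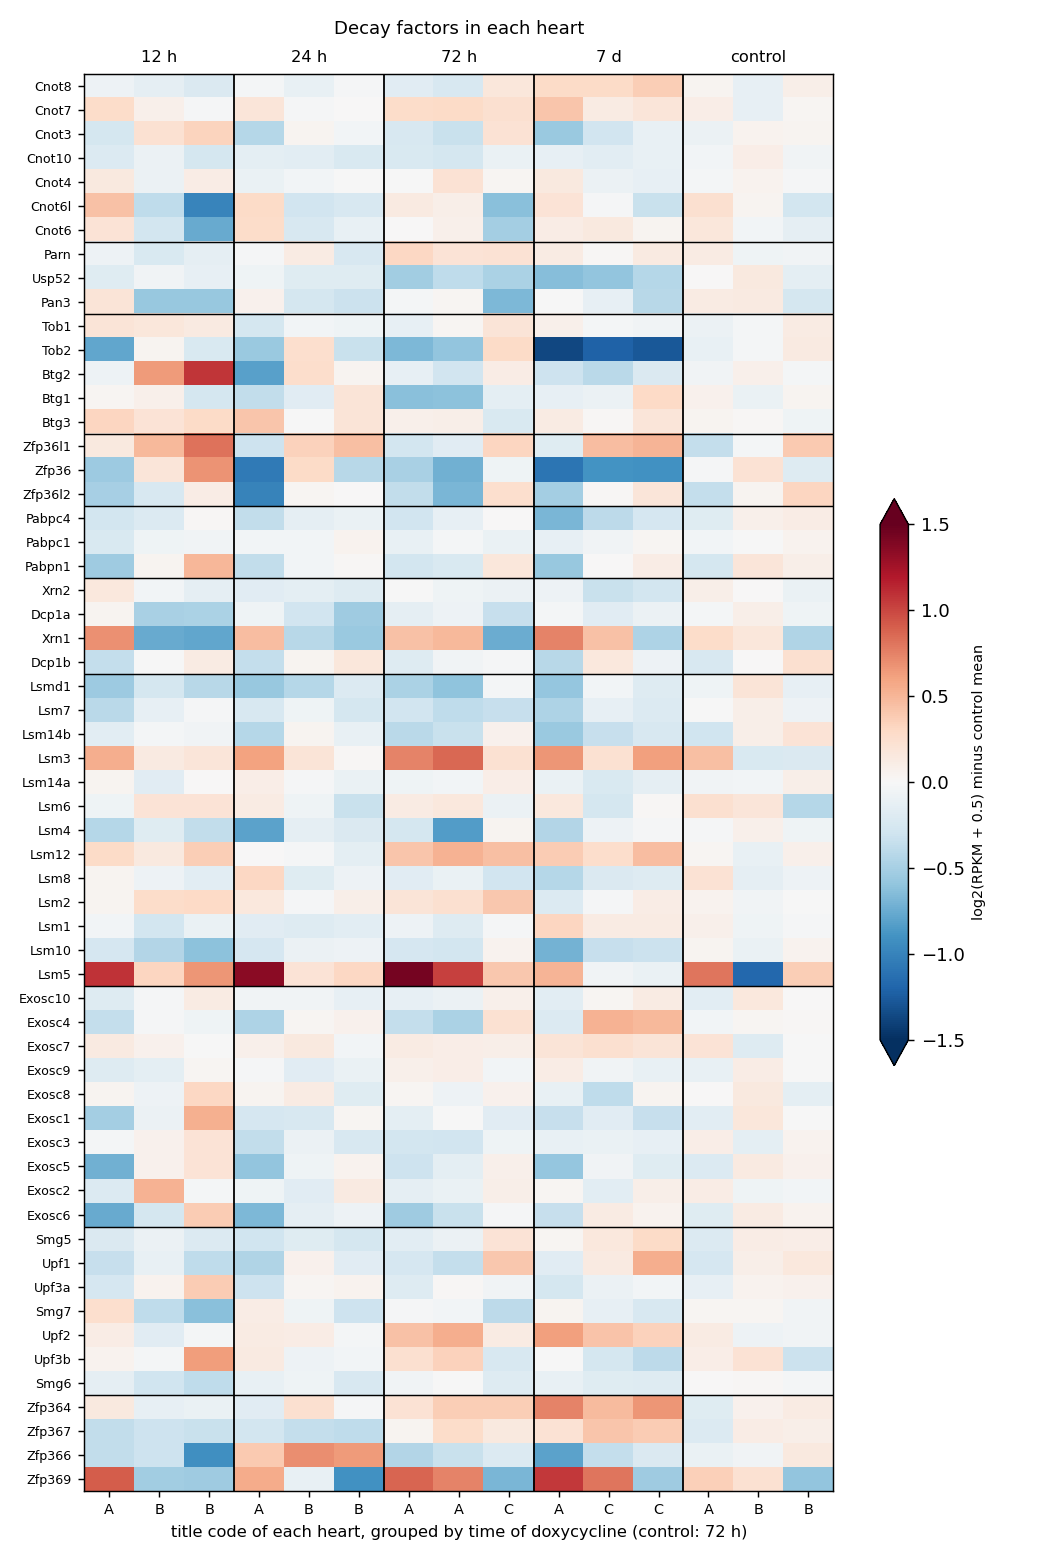
Log2(RPKM + 0.5) of each tested member minus its control mean (colour, red above and blue below) in each of the 15 hearts, ordered by time with controls at the right and labelled by title code; members are grouped by role and ordered by mean RPKM. Tob2 is blue in all 3 hearts at 7 d, while Xrn1 and Cnot6l are red mainly in hearts of code A. Lsm3 lies above its control mean in induced hearts of every code, and Lsm5 in induced hearts of codes A and B.

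A direct comparison of late with early induction uses 7 d against 12 h hearts, which have the same genotype and no control in common. Of 59 members, 9 were called, against 15.6% of all genes, and as a share this was 15.3%. Tob2 (log2 change -0.96 ± 0.26, limma adjusted p = 0.0226), Usp52 (-0.44 ± 0.11, 0.0154), Zfp36 (-1.07 ± 0.32, 0.0346) and Btg2 (-0.85 ± 0.27, 0.0448) were lower at 7 d, where 3.88% of all genes were. Cnot8 (0.46 ± 0.11, limma adjusted p = 0.0116), Lsm1 (0.33 ± 0.10, 0.0363), Upf2 (0.49 ± 0.13, 0.0199), Zfp364 (0.65 ± 0.13, 0.00426) and Zfp367 (0.67 ± 0.11, 0.00149) were higher at 7 d, where 11.8% were. The hearts of all 9 lie apart, and in all, 8 members lay higher and 9 lower without overlap, where 22.3% and 8.07% of all genes did so. The 7 d group has Y-linked mRNA in 3 of 3 hearts and the 12 h group in 0 of 3, and with Y-linked mRNA as a covariate none of the 9 was called. With the title code as a covariate, Tob2, Usp52, Upf2, Zfp364 and Zfp367 were still called, whereas Zfp36 (-0.87 ± 0.31, limma adjusted p = 0.0788), Btg2 (-0.52 ± 0.24, 0.163), Cnot8 (0.28 ± 0.11, 0.124) and Lsm1 (0.30 ± 0.12, 0.108) were not, and Cnot3 (-0.45 ± 0.13, 0.0339) and Lsm8 (-0.44 ± 0.12, 0.0339) were called in addition. Lsm1 and Upf2 were not called under any of 3 scalings between hearts. The split of 5 higher and 4 lower became 3 and 8 under median-ratio scaling and 3 and 9 under each of the other 2. Of 17 immediate early genes tested, 4 were lower at 7 d than at 12 h, among them Fos (-2.18 ± 0.42) and Dusp1 (-1.32 ± 0.25). The summed level of all 23 listed immediate early genes, tested or not, was 280 to 332 RPKM at 7 d, against 274 to 507 RPKM at 12 h.

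Of 59 members, 1 was called between 24 h and 12 h, against 0.559% of all genes. It was Zfp366, a nuclear zinc finger protein that shares letters with the ZFP36 family only. Zfp366 had 6.30, 7.89 and 7.59 RPKM at 24 h and 3.53, 3.68 and 2.23 at 12 h, against 4.33, 4.51 and 5.26 in controls, and the log2 change between 24 h and 12 h was 1.11 ± 0.18 (limma adjusted p = 0.0104). The 24 h hearts lie above and the 12 h hearts below all controls, with changes against control of 0.58 and -0.53 that were not called. The other letter-only members were Zfp364, with 26.96, 22.17 and 25.33 RPKM at 7 d against 13.96, 16.59 and 17.27 in controls (0.62 ± 0.13, adjusted p = 0.00687), Zfp367 with a change of 0.34 ± 0.11 at 7 d (not called), Zfp369 with values of 0.33 to 2.76 RPKM, and Zfp365, which reached at most 0.35 RPKM.

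More members differed between title codes than in any comparison of CELF2 induction. With group and code in the same fit, 26 of 59 members differed between codes B and A, 16 higher and 10 lower in B, where 22.3% and 13% of all genes were called in these directions. Between codes C and A, 14 were higher and 6 lower in C, where 29% and 4.93% of all genes were. The differences followed base composition, with a Spearman correlation with the GC content of the coding sequence of 0.833 (B minus A) over 57 members and of 0.73 over 10347 genes, as a description across genes that share libraries. For C minus A these were 0.883 and 0.769, and with coding length the correlations over members were -0.135 and -0.179. Members higher in B had a median GC content of 58.5%, those lower 43.2% and those not called 50.5%. Zfp36 (0.67 ± 0.20), Zfp36l2 (0.66 ± 0.12) and Btg2 (0.65 ± 0.15), all GC-rich, had log2 levels higher in B than in A, and Xrn1, Lsm5 and Cnot6l, with 40.6% to 43.2% GC, had lower levels. What the code stands for, and so what these differences come from, was not tested.

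**Figure D5:**
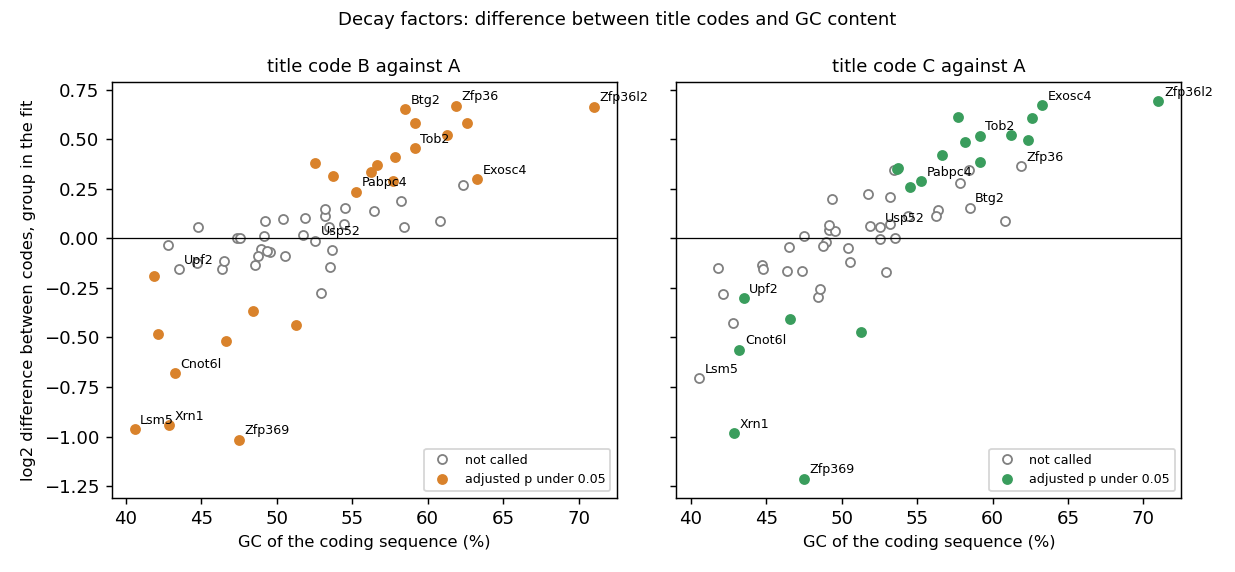
Log2 difference of each tested member between title codes (y axis, B minus A at left and C minus A at right, group in the fit) against the GC content of its coding sequence (x axis, percent), filled where the adjusted p is under 0.05. In both panels the members run from low GC and negative differences (Xrn1, Cnot6l) to high GC and positive ones (Zfp36l2 at 71.0%).

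Decay genes outside the rule were followed as a list of 66 symbols, of which 56 were tested. At 7 d, 2 rose and 3 fell, which is 8.93%, against 9.99% of all genes. Paip2b, which sequesters poly(A)-binding protein, averaged 22.9 ± 0.90 RPKM at 7 d, against 11.3 ± 2.23 in controls (SD, n = 3 each), a log2 change of 1.01 ± 0.15 (SE, limma adjusted p = 0.000908). C1d, a cofactor of the nuclear exosome, rose by 0.54 ± 0.12. Cugbp1 (CELF1), the paralog of CELF2 that promotes decay of GU-rich mRNAs, averaged 11.05 ± 2.27 RPKM at 7 d, against 23.8 ± 1.03 in controls, a log2 change of -1.09 ± 0.21 (limma adjusted p = 0.00506), and it was already lower at 72 h (-1.40 ± 0.21, adjusted p = 0.0115). Hbs1l, which rescues stalled ribosomes, changed by -0.40 ± 0.10 and Rbm8a, of the exon junction complex, by -0.30 ± 0.08. Between 7 d and 12 h, 6 of the 56 were called, which is 10.7%, against 15.6% of all genes. All 6 were higher at 7 d, where 11.8% of all genes were, among them Paip2b (0.94 ± 0.15), Tnrc6b (0.41 ± 0.13), Tnrc6c (0.52 ± 0.12), Eif2c4 (AGO4, 0.81 ± 0.26) and the poly(A) exonuclease gene Pde12 (listed as E430028B21Rik, 0.44 ± 0.14).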

How the data were processed

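Poly(A)+ RNA of 15 ventricles was analysed. Values are RPKM as deposited by the authors, who aligned reads to mm9 and scaled counts by the length of each RefSeq gene's constitutive coding part and by uniquely mapping reads, ribosomal and mitochondrial reads left out. The submitters' processing notes name Bowtie and TopHat, with versions not given in the sources used here. Values carry 2 decimals, 10.8% are 0, and depth could not be recovered, so precision is given by the spread between mice.

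Groups came from the labels. Labels of induced mice also mention a Celf1 cassette, the series' design text describes muscle, and a supplementary list gives another doxycycline dose. None of these was used.

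All 5 groups entered a single limma fit (3.58.1, under R 4.3.3, trended prior variance) on log2(RPKM + 0.5). It covered the 10557 genes whose mean reached 1 RPKM, and Benjamini-Hochberg adjusted p under 0.05 was called. The pseudocount understates changes of low genes. On data simulated for 7 d against control over 10557 genes, the fit recovered 52.2% of genes changed 1.5-fold, 80.6% changed 2-fold and 100% changed 4-fold, with 6.06% false calls. Noise was drawn independently for each gene and heart, with no title code or Y-linked difference, and genes of low level were not changed. These shares therefore do not carry over to the real hearts, where code and Y-linked mRNA run along with the groups. Members, roles, lists and tests were chosen with earlier results of these data known. Named genes are the called members, the most abundant member per role, fixed decay factors, members apart from controls by 0.5 on the log2 scale, and called genes of the outside list, of which 1 is not reported here. Cnot3, Pan3, Exosc4, Lsm3, Lsm5, Lsm6, Lsm8, Cnot6l, Dcp1a, Dcp1b and Lsm14b were named after their values were seen. Gene positions and UTRs are from the mm9 annotation (GENCODE vM1) and coding sequence was matched for 57 of 59 tested members. Alternatives were other pseudocounts and filters, scalings between hearts, title code and Y-linked mRNA as covariates, library quality weights, the compared groups alone, and leaving out hearts. Figures and counts used Python 3.11.15 with pandas 2.3.3 and numpy 2.4.6.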

Additional observations from a re-analysis of the deposited data

Results flagged for a closer look

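Induced hearts of 2 times, set directly against each other in the same limma fit, differed in these members. Between 24 h and 12 h, Zfp366 differed by 1.11 on the log2 scale (adjusted p = 0.0104). Between 7 d and 12 h, Tob2 differed by -0.96 (limma adjusted p = 0.0226), Usp52 by -0.44 (0.0154), Zfp36 by -1.07 (0.0346) and Btg2 by -0.85 (0.0448). In the other direction, Cnot8 differed by 0.46 (limma adjusted p = 0.0116), Lsm1 by 0.33 (0.0363), Upf2 by 0.49 (0.0199), Zfp364 by 0.65 (0.00426) and Zfp367 by 0.67 (0.00149). Y-linked mRNA was present in 3 of 3 hearts at 7 d and in 0 of 3 at 12 h, and title code C in 2 of 3 at 7 d and 0 of 3 at 12 h, and within code A each of these 2 groups holds 1 heart. Within code A, Tob2 differed by -0.59, Usp52 by -0.46, Zfp36 by -0.55, Btg2 by -0.23, Cnot8 by 0.37, Lsm1 by 0.37, Upf2 by 0.51, Zfp364 by 0.60 and Zfp367 by 0.59 on the log2 scale between 7 d and 12 h. With the title code as a covariate, Zfp36, Btg2, Cnot8 and Lsm1 were no longer called, and with Y-linked mRNA as a covariate none of these members was.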

How the results depend on the processing

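No called change reversed its direction under any alternative. For 7 d against control 7 members were called, for 7 d against 12 h 9, for 24 h against 12 h 1, for 72 h against control 1, and for any difference among the 5 groups 7. With the title code as a covariate, 3 members were called at 12 h, 1 at 24 h, 3 at 72 h, 9 at 7 d (6 of the 7 among them), 7 for 7 d against 12 h (5 of the 9 among them) and 12 for any difference. With Y-linked mRNA as a covariate, 0 were called at 72 h, 1 at 7 d, 0 for 24 h against 12 h, 0 for 7 d against 12 h and 3 for any difference. It called 0.0568% of all genes at 72 h and 3.93% at 7 d. With both covariates, 3 were called at 12 h, 0 at 72 h, 1 at 7 d (Lsm10, -1.03) and 0 for each comparison with 12 h. The shares of all genes called with both were 4.3% at 12 h, 0.00947% at 72 h and 1.54% at 7 d. Without the 3 hearts of title code C, 0 were called at 72 h, 2 at 7 d (Tob2 and Lsm10), 0 for 7 d against 12 h and 1 for any difference, the single remaining 7 d heart being assumed to vary like the other groups. These 2 alternatives were chosen after seeing the data. Library quality weights, estimated gene by gene because the default estimate did not converge, gave 9 at 12 h, 1 at 24 h, 22 at 72 h, 18 at 7 d, 26 for 7 d against 12 h and 40 for any difference, where 12.8%, 2.06%, 37.5%, 31.4%, 48.1% and 73.2% of all genes were called. Fits of the compared groups alone gave 0 at 72 h, 0 for 24 h against 12 h and 4 for 7 d against 12 h. A pseudocount of 0.1 gave 0 at 72 h, and a minimum of 5 RPKM gave 0 for 24 h against 12 h, since it removed Zfp366 from the test. Leaving out each heart in turn gave 0 to 1 members at 72 h, 3 to 8 at 7 d, 0 to 1 for 24 h against 12 h, 3 to 12 for 7 d against 12 h and 4 to 11 for any difference. The shares of all genes called in these fits ran from 0.0379% to 2.55% at 72 h and from 5.04% to 12% at 7 d. At 7 d, 3 members were called without 7 d replicate 1 or control replicate 2 and 4 without 7 d replicate 2, 7 d replicate 3 or control replicate 3. For 7 d against 12 h, 3 were called without 12 h replicate 2 or 7 d replicate 2, 4 without 12 h replicate 3 and 5 without 7 d replicate 1 or 3. At 7 d, Tob2, Usp52 and Zfp364 were called whichever heart was left out, Lsm12 in 11 of 15 such fits, Upf2 in 10, Pabpc4 in 6 and Lsm10 in 3, and Lsm12 at 72 h in 3. Scaling between hearts moved the median log2 change of all genes by up to -0.14 for 7 d against 12 h, and Upf2 (at 7 d, and for 7 d against 12 h) and Lsm1 (for 7 d against 12 h) were not called under any of the 3 scalings. Under median-ratio, upper-quartile and quantile scaling, 6, 7 and 8 members were called at 7 d and 11, 12 and 12 for 7 d against 12 h. At 7 d these scalings called 12%, 12.1% and 12.3% of all genes. The cause of these differences was not tested. By replicate number, no paired analysis was possible because the labels give none that links groups. The title code does link hearts of different groups, and it entered as the covariate above. Since depth is unknown, no counting error could be given for low members.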
